A study of Homo sapiens with 4 samples.

Results

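The amino acid transporters described here are the genes of the solute carrier families SLC1A, SLC3A, SLC7A, SLC36A, SLC38A and SLC43A. They were taken as the gene symbols of the platform annotation that consist of 1 of these family names and a number, and each gene was represented by its brightest probe set, the one with the highest mean log2 signal over the 4 arrays. The rule found 38 of the 19775 genes with a single symbol. U937 is a human cell line with monocytic properties, derived from a histiocytic lymphoma. Of the 2 lines compared, the first carried a short hairpin against PIR, the gene of the nuclear protein pirin, in the lentiviral vector pSICO-R, and the second carried that vector with no hairpin. Both were grown in the same glutamine-supplemented RPMI-1640 medium with serum, so the labels give both the same amino acid supply. Total RNA of 3 extractions was mixed into 1 pool per line, and each pool was hybridised to 2 HG-U133 Plus 2.0 arrays, called replica 1 and replica 2. Both arrays of a line therefore share their RNA, so each line counts as 1 sample, every SD given here is between 2 arrays of 1 RNA pool, and no p-value was computed. The submitters state that no pirin protein was left in the hairpin line by Western blotting. A single hairpin was used, and a difference between the pools cannot be told apart from a difference between these 2 cell lines that has another origin.

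Amino acids cross membranes on carriers that differ in driving force and in place. SLC1A and most plasma membrane SLC38A proteins pull amino acids into the cell with sodium. The SLC7A light chains exchange one amino acid for another and need a heavy chain of the SLC3A family to reach the surface, while the cationic SLC7A members take up arginine and lysine on their own. SLC36A1 moves amino acids with protons, often out of lysosomes, and SLC43A1 and SLC43A2 carry large neutral amino acids by facilitated diffusion. In macrophages these carriers are known for supplying arginine, glutamine and cystine, and several of their genes are induced by the transcription factor ATF4 when amino acids are short.

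PIR had signals of 83.4 and 91.5 on the knock-down arrays, against 1813 and 1882 on the empty-vector arrays, as the labels require. Median signals were 62.5 and 68.5 on the knock-down arrays, against 70.8 and 72.1 on the empty-vector arrays. Of the myelomonocytic markers SPI1, CD4, LYZ, ITGB2, PTPRC, CEBPA, MPO and FCGR1A, 6 of 8 reached the brightness limit, and MPO and FCGR1A did not. Among 12 markers of T, B, erythroid, epithelial, fibroblast and endothelial cells only CD79A and COL1A1 reached it. The brightness limit was the 60th percentile of each array's signal and lay between 116.4 and 125.5. Genes are called measured where 1 pool or both had the 2 arrays at or above it. Differences are given on the scale log2(signal + 18), knock-down minus empty vector, which understates the change of dim genes.

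None of the transporters met the 2-fold rule, and 3 met the 1.5-fold rule, all of them higher in the knock-down pool: SLC38A7 (0.99), SLC38A6 (0.90) and SLC7A7 (0.79). Of the 38 members, 22 were measured, and 11 of them had a positive and 11 a negative difference, where 55.2% of all measured genes were positive. The median difference was 0.01, against 0.05 for all 10288 measured genes, and the members ran from -0.56 for SLC7A5 to 0.99 for SLC38A7. Under the 2-fold rule the difference had to reach 1, each of the 4 array pairs had to reach 0.5 with the same sign, and the higher pool had to be bright on both arrays. This rule called 2.44% of measured genes higher and 1.10% lower (3.54% in either direction), and none of the 22 members in either direction. The 1.5-fold rule, with limits of 0.58 and 0.29 in place of 1 and 0.5, called 8.51% of measured genes higher and 4.95% lower (13.5% in either direction). Read beside these shares, 3 of 22 members higher and none lower is nothing particular to the transporters. The arrays of the 2 pools did not overlap for 10 members with higher and 9 members with lower knock-down signals, beside 40.9% and 31.2% of all measured genes (72.0% in either direction), so separation of the arrays alone was common and says little about a member. The median SD between arrays of a pool was 0.07 on the log2 scale for the measured members on the knock-down side and 0.07 on the empty-vector side. Scaling each array to a common median, instead of the deposited scaling, raised the differences of all genes: the median of all measured genes became 0.17 and the 1.5-fold rule then called 13.1% higher and 2.95% lower. Under that scaling 15 members were positive and 7 negative, and their median of 0.13 was still below that of all measured genes.

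**Figure D1:**
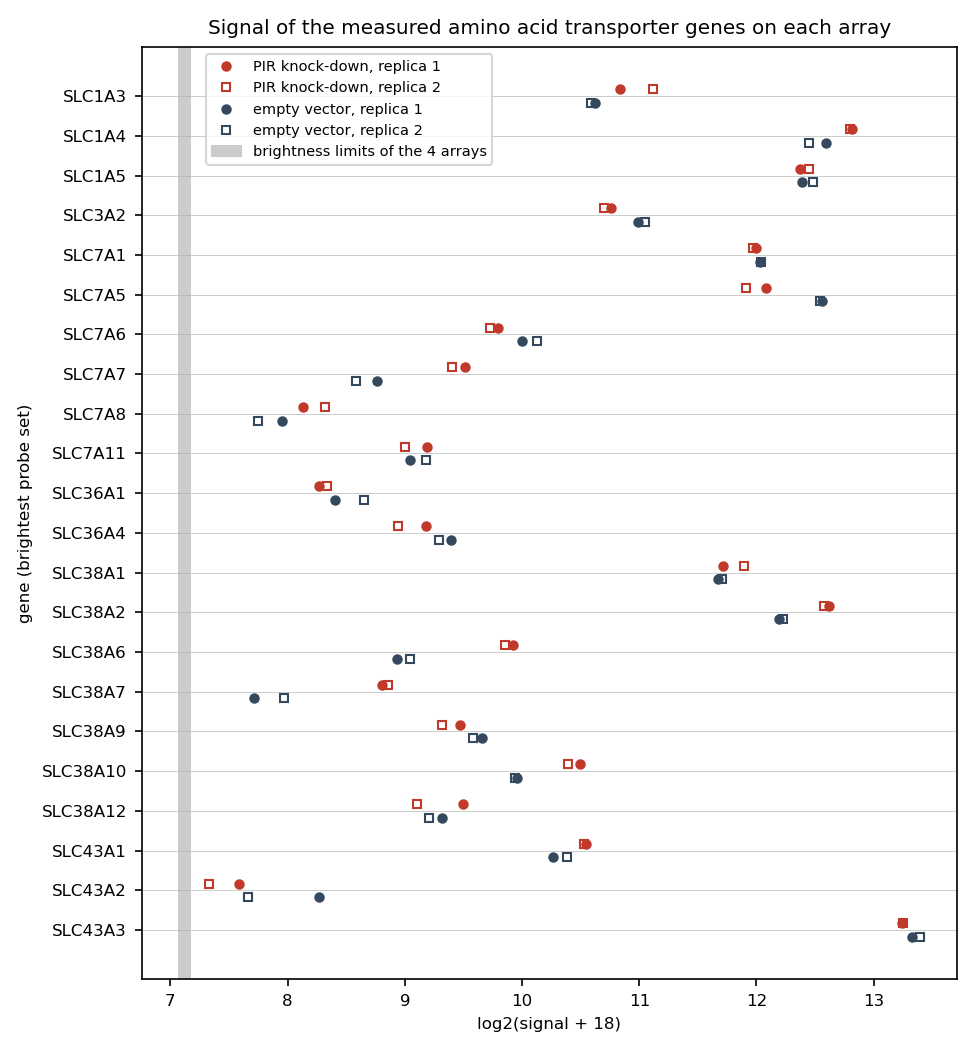
Signal of each of the 22 measured amino acid transporter genes on each array, as log2(signal + 18) on the horizontal axis. For each gene the knock-down arrays (red) are drawn above the empty-vector arrays (dark), circles are replica 1, squares replica 2, the grey band spans the brightness limits, and the knock-down arrays lie to the right for SLC38A7, SLC38A6 and SLC7A7 and to the left for SLC7A5.

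The SLC38A family held the largest positive differences, and 6 of its 7 measured members were positive, beside 55.2% of all measured genes. The positive members included SLC38A12 at 0.04, with overlapping arrays. SLC38A7, known as a glutamine carrier of the lysosomal membrane, had signals of 430.4 and 445.1 on the knock-down arrays, against 191.3 and 232.4 on the empty-vector arrays. The arrays did not overlap, and both knock-down arrays stood well above the brighter empty-vector array. The difference was 0.99, a fold of 1.99, with array-by-array differences from 0.84 to 1.15, so the gene lay just under the 2-fold limit. Its further measured probe sets were also positive but smaller, 0.79 on 218727_at, which met the 1.5-fold rule, and 0.42 on 228951_at, which did not. The means were 438 ± 10.4 in the knock-down pool, against 212 ± 29.1 in the empty-vector pool (SD, n = 2 arrays each). Leaving out empty-vector replica 2 gave 1.12 and leaving out knock-down replica 1 gave 1.02, both past the 2-fold limit, and the value was 0.42, short of the 1.5-fold rule, when all 4 probe sets, a dim one included, were averaged.

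SLC38A6, a less studied member of the same family, had signals of 950.4 and 905.9 on the knock-down arrays, against 470.3 and 508.6 on the empty-vector arrays. Both knock-down arrays were far above both empty-vector arrays, and the spread within each pool was small. The means were 928 ± 31.5 in the knock-down pool, against 489 ± 27.1 in the empty-vector pool (SD, n = 2 arrays each). The difference was 0.90, a fold of 1.87, with a range of 0.81 to 0.99 over array pairs. It rests on a single probe set, 214830_at, and stayed past the 1.5-fold limit with each array left out in turn (0.84 to 0.95).

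SLC38A10, an intracellular family member whose role is less settled, had signals of 1425 and 1324 on the knock-down arrays, against 973.5 and 961.3 on the empty-vector arrays. The difference of 0.50 missed the 1.5-fold limit, although the arrays were cleanly separated. Its other 3 measured probe sets gave 0.37, 0.52 and 0.77, the last of which (238347_at) met the 1.5-fold rule. On the probe sets at 0.52 and 0.77 the empty-vector pool was not bright on both arrays. Its signals there were 143.1 and 78.6 for the first and 113.7 and 70.8 for 238347_at, so these values are uncertain. Averaging all SLC38A10 probe sets, dim ones included, gave 0.01. SLC38A2, the SNAT2 carrier that brings small neutral amino acids into the cell with sodium and is known to be induced by amino acid shortage, had 6256 and 6095 on the knock-down arrays, against 4651 and 4782 on the empty-vector arrays. Its difference of 0.39 met neither rule although the array pairs were even (0.35 to 0.43), and its other probe sets gave 0.44 each. SLC38A1, the related SNAT1 glutamine carrier, had 3342 and 3792 on the knock-down arrays, against 3240 and 3330 on the empty-vector arrays, and differed by 0.12, by 0.02 with knock-down replica 2 left out and by 0.21 with knock-down replica 1 left out. SLC38A12, an uncharacterised member also listed as TMEM104, differed by 0.04 with overlapping arrays, and by -0.02 after quantile normalization.

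SLC38A9, a lysosomal carrier that senses arginine for the growth kinase complex mTORC1, was the negative member of the family. It had 690.4 and 621.2 on the knock-down arrays, against 790.1 and 749.2 on the empty-vector arrays, a difference of -0.23. Averaging it with its dim second probe set gave -0.80, past the 1.5-fold limit, a value that rests mainly on signals below the brightness limit. SLC38A3, SLC38A4, SLC38A5 and SLC38A11 were not measured.

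**Figure D2:**
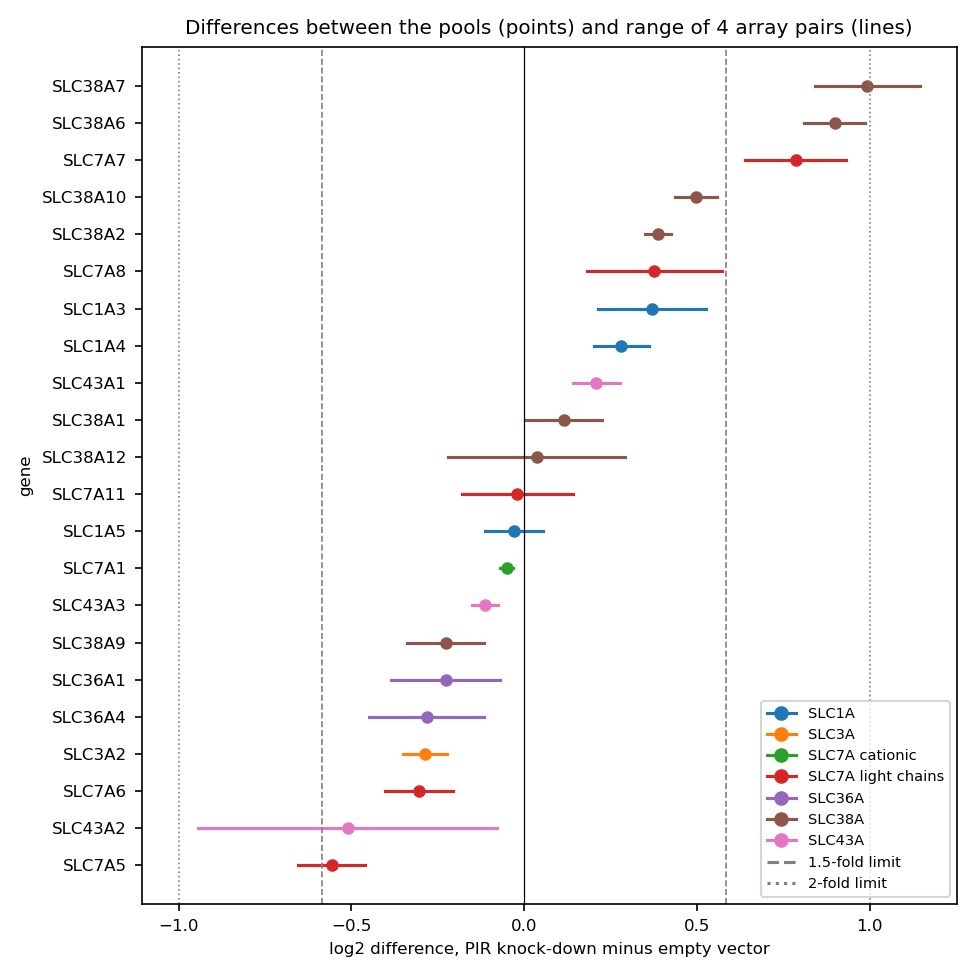
Log2 difference of each measured member, knock-down minus empty vector, ordered by size, with the range of the 4 array-by-array differences as a line, colours for the families and dashed and dotted lines at the 1.5-fold and 2-fold limits. The 3 genes beyond the upper dashed line are SLC38A7, SLC38A6 and SLC7A7, and SLC7A5 stops just short of the lower one.

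The 5 measured light chains of the heavy chain SLC3A2 had differences of both signs, 2 positive and 3 negative, and of these SLC7A7 met the 1.5-fold rule. SLC7A7, the y+LAT-1 chain that exports arginine and lysine in exchange for neutral amino acids and is expressed in monocytes and macrophages, had 713.7 and 660.1 on the knock-down arrays, against 417.2 and 365.4 on the empty-vector arrays. Every knock-down array was above every empty-vector array by at least 0.64, and the means were 687 ± 37.9 in the knock-down pool, against 391 ± 36.6 in the empty-vector pool (SD, n = 2 arrays each). The difference was 0.79, a fold of 1.72, on its only probe set. It met the 1.5-fold rule with each array left out in turn (0.69 to 0.88). Of the 6 measured myelomonocytic markers, CD4 (0.84) and PTPRC (0.69) met the 1.5-fold rule as higher, beside 8.51% of all measured genes. ITGB2 (0.38), CEBPA (0.26), LYZ (0.01) and SPI1 (-0.13) did not, and the arrays overlapped for LYZ and SPI1. MPO and FCGR1A were below the brightness limit on all 4 arrays. The summed signal of the 8 markers was 53308 to 58859 on the knock-down arrays, against 48252 to 49411 on the empty-vector arrays, and LYZ alone gave 25100 to 30525 of it on the knock-down arrays, against 27356 to 27533 on the empty-vector arrays. Their part in the SLC7A7 difference was not tested. In bulk RNA, more cells that express a gene and more RNA per cell cannot be told apart.

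SLC7A5, the LAT1 chain that imports leucine and other large neutral amino acids, had 4327 and 3823 on the knock-down arrays, against 6022 and 5957 on the empty-vector arrays. The empty-vector arrays were nearly equal, and both knock-down arrays lay below them. The means were 4075 ± 356 in the knock-down pool, against 5989 ± 45.9 in the empty-vector pool (SD, n = 2 arrays each). The difference was -0.56, which is 1.47-fold lower, just short of the 1.5-fold limit, and it was -0.65, past the limit, with knock-down replica 1 left out, -0.47 with knock-down replica 2 left out and -0.43 under median scaling. It stood at the 5.88th percentile of the differences of all measured genes. SLC3A2, the CD98 heavy chain that carries these light chains to the surface, had 1720 and 1645 on the knock-down arrays, against 2011 and 2102 on the empty-vector arrays, a difference of -0.29 that met neither rule. SLC7A6, the y+LAT-2 chain and close relative of SLC7A7, differed by -0.30 (871.5 and 828.4 in the knock-down pool, against 1007 and 1101 in the empty-vector pool), and met neither rule.

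SLC7A8, the LAT2 chain for neutral amino acids, was positive at 0.38, with a range of 0.18 to 0.57 over array pairs, and met neither rule. SLC7A11, the xCT chain that imports cystine in exchange for glutamate and feeds glutathione synthesis, had 564.2 and 494.3 on the knock-down arrays, against 510.0 and 562.2 on the empty-vector arrays. These values overlapped, with a difference of -0.02 (0.10 under median scaling), and the second measured probe set gave -0.26. SLC7A9, SLC7A10 and SLC7A13 were not measured, nor was SLC3A1, the heavy chain of the kidney cystine carrier.

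Sequences upstream of the 3 genes that met the 1.5-fold rule are shown with those of SLC7A5 and SLC3A2, a light chain and the heavy chain with negative differences, so that their promoters can be set side by side. Each is the RefSeq window (GRCh38.p14) from 250 bases before to 50 after an annotated start, read 5′ to 3′ on the gene's strand. Where a gene had several windows, the one with the most motif matches is given. Capitals mark matches on either strand to TGATGNAA (the core of the amino acid response element bound by ATF4), CACGTG (the E-box bound by factors such as TFEB and MYC) or a form of the kappa B site of NF-kB (GGG, any 3 bases, then TTCC). The windows are chr16:58684282-58684581 (minus strand) for SLC38A7, chr14:60980995-60981294 (plus strand) for SLC38A6, chr14:22815822-22816121 (minus strand) for SLC7A7, chr16:87869458-87869757 (minus strand) for SLC7A5 and chr11:62881449-62881748 (plus strand) for SLC3A2.
SLC38A7: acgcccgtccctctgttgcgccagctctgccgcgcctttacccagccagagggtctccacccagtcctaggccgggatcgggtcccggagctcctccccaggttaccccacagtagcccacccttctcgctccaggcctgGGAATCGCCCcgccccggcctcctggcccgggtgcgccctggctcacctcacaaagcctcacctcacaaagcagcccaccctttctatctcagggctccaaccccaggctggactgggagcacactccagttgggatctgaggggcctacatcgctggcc
SLC38A6: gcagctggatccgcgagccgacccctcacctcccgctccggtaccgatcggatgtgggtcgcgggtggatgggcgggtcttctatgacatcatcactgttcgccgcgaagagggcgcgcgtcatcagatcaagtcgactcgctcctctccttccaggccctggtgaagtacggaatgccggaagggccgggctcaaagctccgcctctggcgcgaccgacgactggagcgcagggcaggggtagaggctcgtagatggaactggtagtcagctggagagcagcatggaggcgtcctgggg
SLC7A7: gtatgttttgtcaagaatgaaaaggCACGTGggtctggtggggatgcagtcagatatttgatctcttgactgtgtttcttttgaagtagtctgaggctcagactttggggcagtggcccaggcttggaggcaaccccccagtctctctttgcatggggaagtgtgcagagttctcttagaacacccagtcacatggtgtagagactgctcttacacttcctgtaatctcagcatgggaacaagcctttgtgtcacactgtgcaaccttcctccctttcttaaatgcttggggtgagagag
SLC7A5: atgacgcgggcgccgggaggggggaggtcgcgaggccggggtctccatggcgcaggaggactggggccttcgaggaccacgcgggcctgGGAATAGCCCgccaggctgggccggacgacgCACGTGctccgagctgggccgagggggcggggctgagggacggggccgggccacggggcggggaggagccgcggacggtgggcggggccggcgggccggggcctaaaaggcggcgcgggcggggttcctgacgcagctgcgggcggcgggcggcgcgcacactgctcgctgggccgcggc
SLC3A2: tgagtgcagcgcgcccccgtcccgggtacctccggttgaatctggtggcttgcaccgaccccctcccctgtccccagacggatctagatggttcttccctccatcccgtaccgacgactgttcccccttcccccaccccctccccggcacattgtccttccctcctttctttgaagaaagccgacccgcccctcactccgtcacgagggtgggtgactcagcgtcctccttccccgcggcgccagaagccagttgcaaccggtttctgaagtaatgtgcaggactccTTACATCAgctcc

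Windows were found for 29 of the 38 members, 51 in all. Members without one were SLC1A2, SLC3A1, SLC7A2, SLC7A3, SLC7A4, SLC7A11, SLC7A13, SLC38A3 and SLC43A3. The SLC7A7 window held 1 E-box, the SLC38A7 window 1 kappa B match and its other window 1 E-box, and the SLC38A6 window none of the 3 motifs. SLC7A5 held an E-box and a kappa B match, and SLC3A2 the amino acid response element. The E-box was present in 17.6% of the members' windows and in 7.26% of all 35116 windows. For the amino acid response element the shares were 11.8% and 3.62%, with matches at SLC1A3, SLC1A4, SLC1A5, SLC38A1, SLC3A2 and SLC7A1, and for the kappa B form 9.80% and 6.52%. The 3 motifs did not overlap each other in the windows shown. Genes with the amino acid response element had differences of both signs, from -0.29 for SLC3A2 to 0.37 for SLC1A3, and none of them met the 1.5-fold rule. A match to these letters is a description and does not show that a factor binds there.

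Among the SLC1A carriers, 3 of 7 were measured and none met the 1.5-fold rule. SLC1A3, the glutamate carrier EAAT1 of glia and macrophages, had 1813 and 2206 on the knock-down arrays, against 1559 and 1525 on the empty-vector arrays. The difference was 0.37, and it was 0.29 on its other measured probe set, 1569054_at. On 1569054_at the empty-vector signals of 109 and 101.5 were below the brightness limit, so it was measured through the knock-down pool alone. On the brightest probe set the difference was 0.23 with knock-down replica 2 left out and 0.51 with knock-down replica 1 left out. SLC1A4, the ASCT1 carrier of alanine, serine and cysteine, had 7179 and 7096 in the knock-down pool, against 6170 and 5582 in the empty-vector pool, a difference of 0.28. Of its further probe sets 3 gave 0.27 to 0.48, but the dimmer 244377_at gave -0.24, so the direction is not the same on all of them. SLC1A5, the ASCT2 glutamine carrier of proliferating cells, had 5268 and 5567 on the knock-down arrays, against 5356 and 5695 on the empty-vector arrays. These values overlapped, with a difference of -0.03 (0.10 under median scaling). SLC1A1, SLC1A2, SLC1A6 and SLC1A7, glutamate carriers best known from neurons, astrocytes and retina, were not measured.

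The cationic branch of SLC7A had 1 measured member of 5. SLC7A1, the CAT-1 carrier through which most cells take up arginine, had 4069 and 3984 on the knock-down arrays, against 4161 and 4182 on the empty-vector arrays, a difference of -0.05. The arrays did not overlap, but the difference was small, it was 0.08 under median scaling, and further probe sets gave -0.02, 0.01 and 0.37. SLC7A2, the inducible CAT-2 carrier of activated macrophages in mice, had knock-down signals of 8.6 and 2.8 and empty-vector signals of 31.7 and 12.1, all far below the brightness limit. SLC7A3, SLC7A4 and SLC7A14 were not measured either.

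**Figure D3:**
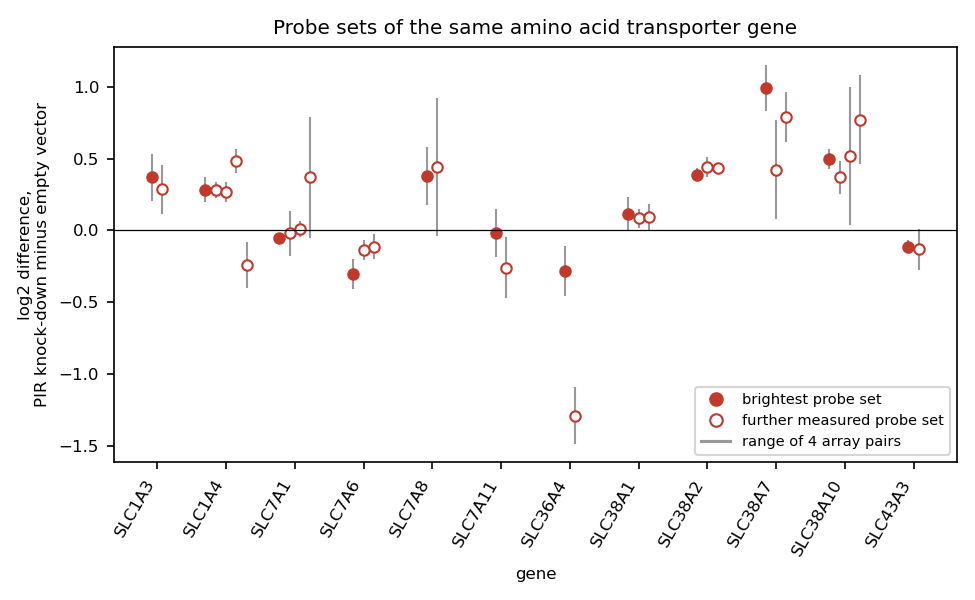
Log2 difference of every measured probe set of the 12 members that had more than 1, knock-down minus empty vector, with filled circles for the brightest probe set, open circles for the others and lines for the range of 4 array pairs. The probe sets of SLC38A2 lie close together, those of SLC38A7 and SLC36A4 lie apart, and SLC1A4 and SLC7A1 have values of both signs.

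Both SLC36A members on the array were measured and negative. SLC36A1, the lysosomal proton-coupled carrier PAT1, had 290.1 and 305.5 on the knock-down arrays, against 321.3 and 384.2 on the empty-vector arrays, a difference of -0.23, and of 0.02 when all its probe sets were averaged. It was -0.10 with empty-vector replica 2 left out and -0.35 with empty-vector replica 1 left out. SLC36A4, the high-affinity relative PAT4, differed by -0.28 on its brightest probe set (561.6 and 474.6 in the knock-down pool, against 654.4 and 609.7 in the empty-vector pool), and by -0.16 with knock-down replica 2 left out. Its second probe set, 230874_at, had 76.1 and 102.4 on the knock-down arrays, against 240.2 and 245.3 on the empty-vector arrays. That is a difference of -1.29, or 2.45-fold lower, and it was the only one of the 45 measured member probe sets to meet the 2-fold rule, beside 3.81% of all measured probe sets with 1 symbol. The knock-down signals of this probe set were below the brightness limit, so the fold is uncertain, and the average of both probe sets was -0.79.

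In the SLC43A family, SLC43A1, the LAT3 carrier of large neutral amino acids, differed by 0.21 (1475 and 1459 in the knock-down pool, against 1215 and 1321 in the empty-vector pool). SLC43A2, the related LAT4 carrier, had 174.1 and 142.6 on the knock-down arrays, against 290.8 and 184.9 on the empty-vector arrays. Its difference of -0.51 had the widest range of the measured members, -0.94 to -0.08, and single arrays decided it. Leaving out empty-vector replica 2 gave -0.81 and leaving out knock-down replica 1 gave -0.64, both past the 1.5-fold limit, while leaving out empty-vector replica 1 gave -0.21. The other SLC43A2 probe set, 228918_at, had the opposite sign at 1.28, with every signal below the brightness limit (68.9 and 61.9, against 14.6 and 17.9). SLC43A3, which is known to carry nucleobases and not amino acids, differed by -0.11 (9684 and 9708 in the knock-down pool, against 10235 and 10750 in the empty-vector pool), and by 0.01 under median scaling.

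**Figure D4:**
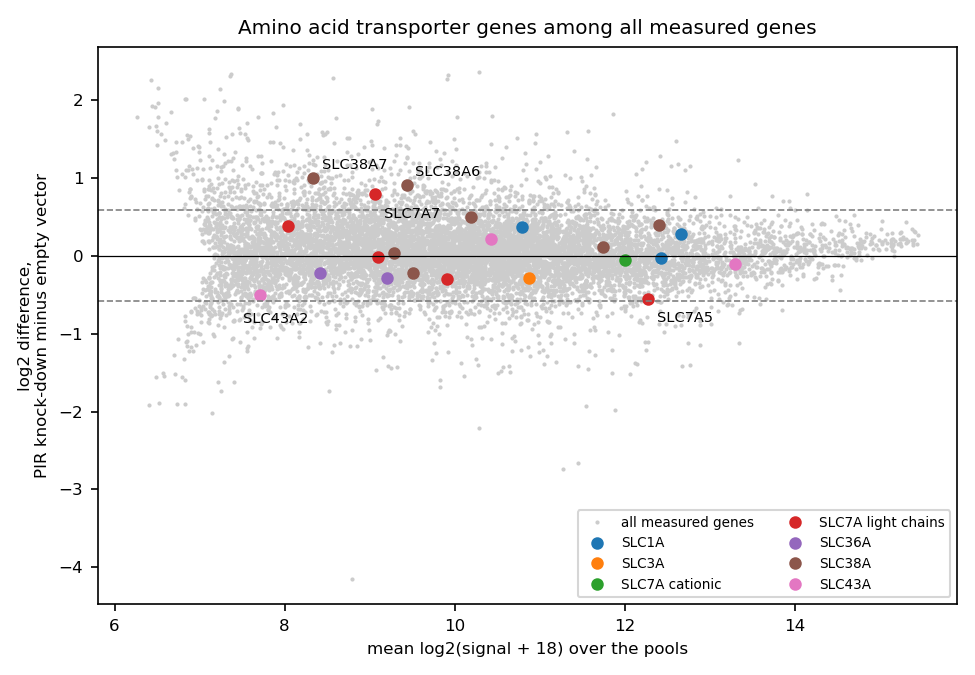
Log2 difference, knock-down minus empty vector, against the mean log2(signal + 18) of both pools, for all 10288 measured genes (grey) and the 22 measured members (coloured by family). The members are spread through the cloud of all genes, with SLC38A7, SLC38A6 and SLC7A7 above the upper of the dashed 1.5-fold limits and SLC7A5 just inside the lower one.

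The 16 members that were not measured had signals from 2.8 to 129 on their brightest probe sets. The value of 129 belonged to SLC1A7 on knock-down replica 2, and without knock-down replica 1 this gene was measured and met the 1.5-fold rule as higher. A signal under the limit does not show that a gene is silent. Across the 12 members with more than 1 measured probe set, 20 of 23 further probe sets had the sign of the brightest one. All of them read the same 2 RNA pools, and some were measured only through the pool where they were higher. The same share over all genes was not computed, so this count is no independent support.

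Genes around the transporters were described in 5 lists. In the amino acid response list, 24 of 27 genes were measured, the 1.5-fold rule called 2 higher and 0 lower (8.51% and 4.95% of all measured genes), 10 were positive and 14 negative, and the list's median was -0.08. SESN2, a leucine sensor and stress gene, had 393.1 and 438.4 on the knock-down arrays, against 187.3 and 314.9 on the empty-vector arrays (0.73), but its second probe set gave 0.26. NUPR1, a stress-induced chromatin protein, differed by 0.61 and met the rule on its only probe set. ASNS, the asparagine synthetase, was the most negative at -0.53, with 999.5 and 995.8 in the knock-down pool, against 1387 and 1516 in the empty-vector pool, and VLDLR, a lipoprotein receptor, differed by 0.49.

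Glutathione and cysteine genes, the users of imported cystine, gave 11 measured genes, none past the 1.5-fold rule, and a median of 0.03. GSR, the glutathione reductase, was at -0.58 on its brightest probe set and at 0.16 on the other, so its direction is not settled. CTH, which makes cysteine, differed by 0.42 (0.03 on its other measured probe set), GSS, the glutathione synthetase, by 0.37, and GCLC, the catalytic subunit of the first step, by 0.27.

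In amino acid metabolism 22 genes were measured and 2 met the 1.5-fold rule, both higher, beside 8.51% of all measured genes, with a list median of 0.07. These were GOT1, the cytosolic aspartate aminotransferase (1135 and 1276 in the knock-down pool, against 756.3 and 757.6 in the empty-vector pool, a difference of 0.66), and SLC25A12, the mitochondrial aspartate and glutamate carrier (4174 and 3973 in the knock-down pool, against 2587 and 2529 in the empty-vector pool, a difference of 0.67, with 0.51 on its other probe set). ASL, of arginine synthesis, differed by 0.38, and ARG2, the mitochondrial arginase, by -0.36, with 0.23 on its other probe set.

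Carriers of amino acids and peptides outside the families above included SLC15A3, which met the 2-fold rule on its only probe set. That was 1 of 9 measured genes, beside 2.44% of all measured genes called higher by this rule. This lysosomal carrier of histidine and small peptides in myeloid cells had 301.0 and 278.5 on the knock-down arrays, against 76.8 and 95.6 on the empty-vector arrays. The difference was 1.57, a fold of 2.96, from empty-vector signals below the brightness limit. None of the other 8 measured genes of this list met the 1.5-fold rule on its brightest probe set. The list median was 0.37, against 0.05 for all measured genes. SLC6A6, the taurine carrier, differed by 0.49 on its brightest probe set, and 2 dimmer ones gave 1.00 and 0.83 and met the 1.5-fold rule. On the first of these the empty-vector arrays stood apart (272.3 and 135.5), with array pairs from 0.46 to 1.55. On the second the empty-vector pool (82.5 and 126.2) was not bright on both arrays, so both values are uncertain. Probe sets of SLC6A6 that were not measured gave -0.38 and 0.38. SLC16A10, a carrier of aromatic amino acids, differed by 0.43. MFSD12, a lysosomal cysteine importer, gave 0.40 on its brightest probe set and -0.27 on the other.

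In the mTORC1 list 22 genes were measured, with a median of 0.12, and 2 met the 1.5-fold rule as higher, beside 8.51% of all measured genes. RRAGD, a Rag GTPase that binds mTORC1 to lysosomes when amino acids are present, had 2771 and 2809 on the knock-down arrays, against 1449 and 1402 on the empty-vector arrays, a difference of 0.96, and 0.71 on its second probe set. RRAGA, its partner, differed by 0.59 (2077 and 1927 in the knock-down pool, against 1327 and 1314 in the empty-vector pool), at the edge of the rule. RRAGC, the relative of RRAGD, differed by 0.49, and by 0.62 on a second probe set that met the rule. CASTOR1, an arginine sensor, had 151.1 and 216.1 on the knock-down arrays, against 121.0 and 127.1 on the empty-vector arrays, close to the brightness limit, and differed by 0.49.

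**Figure D5:**
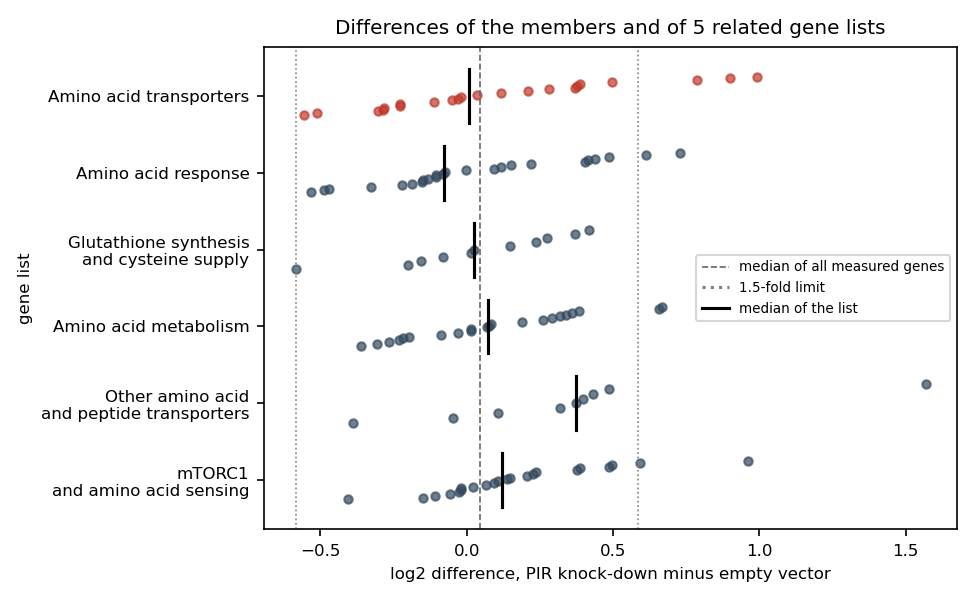
Log2 differences, knock-down minus empty vector, of the measured amino acid transporters (red) and of the measured genes of 5 related lists (dark), each point 1 gene, each black bar a list median, the dashed line the median of all measured genes (0.05) and the dotted lines the 1.5-fold limits. SLC15A3 is the far right point, at 1.57, and RRAGD, at 0.96, leads the mTORC1 list.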

How the data were processed

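RNA from each pool went on 2 arrays, 4 in all. The deposited values are linear signal intensities that the authors made with GCOS, Affymetrix's array software, per the submitters' processing notes. Its version was not given in the sources used. The 2% trimmed mean of each array was 500.07, which shows a global scaling to a shared target. Detection calls were not used here. The number of arrays limits the precision of each pool's values, and 1 RNA pool per line gives no measure of variation between samples.

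Of 54675 probe sets, 62 AFFX controls were left out, 41091 had 1 symbol, 1801 several and 11721 none. All 38 members matched the reference gene table by gene identifier. Another 5 symbols with a suffix (such as antisense transcripts) and 6 probe sets shared with other symbols were not used. Values were taken as log2(signal + 18), 18 being the mean 25th percentile of the arrays. The arrays of a pool were averaged and no test was run. Besides every member and PIR, the text names list genes that met the 1.5-fold rule and, where fewer than 4 did, those with the largest differences up to 4. Both rules were run on simulated arrays with known changes and the noise seen between arrays of a pool. That simulation held no variation between RNA samples or cell lines, so it cannot tell how often the rules call such variation. Members and lists were chosen with earlier results of these data known. Alternatives covered pseudocount, brightness limit, scaling, margin, probe set choice and each array left out. Probe set identifiers ending in _s_at or _x_at can mark probes shared by several transcripts. Python 3.11.15, numpy 2.4.6, pandas 2.3.3 and scipy 1.17.1 were used.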

Additional observations from a re-analysis of the deposited data

How the results depend on the processing

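The 1.5-fold calls of SLC38A6 held under all alternatives run, those of SLC7A7 under all except the choice of probe sets not ending in _x_at or _s_at, which leaves it without a probe set, and those of SLC38A7 under all except the mean over all probe sets. The count of members higher by 2-fold was 1 with no pseudocount and 2 under median scaling (SLC38A6 and SLC38A7), and 0 to 1 with single arrays left out. The count lower by 1.5-fold was 2 with the mean over all probe sets (SLC36A4 and SLC38A9) and 0 to 2 with single arrays left out, while the count higher by 1.5-fold was 3 to 4 with single arrays left out, 4 under median scaling, and 2 both with the mean over all probe sets and with probe sets not ending in _x_at or _s_at. The median difference was 0.13 under median scaling and 0.01 to 0.05 with single arrays left out, and -0.01 after quantile normalization. Of 273 single-gene values under these alternatives, 251 moved by no more than the combined SD of both pools and 22 by more. The combined SD is the root of the summed squares of the 2 pools' SDs between arrays. Many of the 251 could not have exceeded it. Leaving out a single array always moves a value by less, and changing the brightness limit or the margin leaves it unchanged. Their number is therefore no sign of stability. Over all measured genes, the 2-fold rule called 251 higher and 113 lower and the 1.5-fold rule 876 and 509. Counts that moved by over 1.5 times were 164 higher by 2-fold with a pseudocount of 72, 142 (2-fold) and 552 (1.5-fold) higher at the 75th percentile limit, 1348 higher and 303 lower by 1.5-fold under median scaling, 155 higher and 68 lower by 2-fold with the mean over all probe sets, and 180 lower by 2-fold without empty-vector replica 1. The number of measured genes also differed between settings. At the 75th percentile limit it was 7701, and the shares higher were 1.84% (2-fold) and 7.17% (1.5-fold), against 2.44% and 8.51%. With the mean over all probe sets it was 9059, and the 2-fold shares were 1.71% higher and 0.751% lower, against 2.44% and 1.10%. With no brightness limit it was 19775. The 2-fold rule then called 448 higher (2.27%) and 414 lower (2.09%), and the 1.5-fold rule 1380 (6.98%) and 1274 (6.44%). Genes below the brightness limit cannot be judged here. No paired analysis was possible because each line is 1 RNA pool and the replica numbers mark repeat hybridisations of it.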
